A study of Mus musculus with 24 samples.

Results

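The comparison described here is that of PI with CL cortex in wild-type (WT) mice, 1 day after a transient stroke. Its members were chosen by label, as the libraries titled PI WT and CL WT, which make up 12 of the 24 libraries of the series, 6 in each group, with 14489 genes measured in both. The mice were males of 3 to 4 months of the strain C57BL/6N-Cdr1asem1Nikr, here the wild-type animals of that line, whose edited allele removes the circular RNA Cdr1as. All of them, CL and PI samples alike, had the middle cerebral artery closed with a monofilament for 1 h and then open again for 1 day. The labels name the same animal for 1 CL and 1 PI library, do not spell out the marks CL and PI, and give no sham-operated group among these libraries. Total RNA was depleted of ribosomal RNA and sequenced, so each value is a mixture over all cells of a cortex sample. In such a bulk sample fewer cells of a type and less RNA per cell cannot be told apart.

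Transient occlusion of the middle cerebral artery starves part of the cortex and the structures beneath it of oxygen and glucose, and reflow brings oxidative stress. Neurons are the cells most easily lost. Within a day astrocytes become reactive and build up intermediate filaments, microglia leave their resting state, the endothelium is activated, and the tissue turns on heat shock, antioxidant and cytokine programmes. Many of these responses are carried by a few transcription factors, among them STAT3, NF-kappaB, HSF1, NRF2 and the interferon factors.

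The level of a gene is given as log2 CPM, reads per Mread (megaread) of the library size used by the authors. That size need not be the plain total of reads. A change is PI minus CL on the log2 scale, so that 1 is a doubling. Before deposit the outer values of each gene had been pulled in to the quartiles of its group of 6 libraries. The second lowest to second highest library can be recovered from them and the lowest and highest cannot. Where 3 levels follow a gene they are the second lowest, the median and the second highest of the 6 libraries, and "did not overlap" refers to these recoverable values. A summed level adds the deposited values of a list in each library, and these are drawn in, which narrows its range. Over all genes the deposited values summed to 1010458 to 1034099 CPM in CL libraries and to 964093 to 985508 CPM in PI libraries. The depth read from the values was 5.83 to 8.20 Mreads in CL (median 7.05) and 6.17 to 9.87 Mreads in PI (median 6.99), and 3 reads, taken as the limit for a gene with none, were worth at most 0.515 CPM. PI library 4 stood apart: it was among the 2 lowest values in 40.8% of genes and among the 2 highest in 40.5%, against 30.3% to 33.9% in the other PI libraries, and all 1537 calls reported here were also made, with the same sign, by limma on the deposited values without it, a test that calls 6071 genes. That test kept values drawn in with library 4 included, so it cannot show that the calls are independent of that library. The labelled tissue was checked against markers: all 14 neuron markers and all 18 excitatory layer markers were measured, as were 2 of 10 choroid plexus and ependymal markers. Gene positions are those of GENCODE M21 on GRCm38 (mm10).

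Of 14489 genes, 1537 (10.6%) passed an adjusted p of 0.05 in a moderated trimmed-mean test, 754 of them higher in PI (5.20%) and 783 lower (5.40%). The share of 10.6% of all genes is to be set beside the counts of every gene list below. A further count, without adjustment, gave 3469 genes (23.9%) with p under 0.05. Called increases had a median of 0.62 and called decreases one of -0.36. From 3 log2 CPM up, the medians at matched levels were close in size. They were 0.52 and -0.51 from 3 to 5 log2 CPM, 0.34 and -0.35 from 5 to 7, and 0.27 and -0.30 at 7 or more. Below that they differed, 1.63 and -1.07 under 1 log2 CPM (54 and 9 genes) and 1.01 and -0.82 from 1 to 3 (215 and 44 genes). Medians of called genes also depend on the size that a call needs at each level. Over all levels 42 genes rose by 2 or more while 0 fell by as much. At a change of at least 1, 213 genes (1.47%) rose and 32 (0.221%) fell. The recoverable values of the groups did not overlap in 1918 genes with PI higher (13.2%) and in 1891 with PI lower (13.1%), 26.3% of genes in all. They did not overlap in 753 of the 754 genes called higher and 782 of the 783 called lower. For a called gene named below, absence of overlap is therefore a description and adds no support to the call. Increases were spread over all levels of expression, from 5.63% of the 960 genes under 1 log2 CPM to 4.04% of the 1583 genes at 7 or more. Called decreases were not: they made up 0.938% of the least expressed genes and 19.8% of the most expressed. The median SE was 0.334 under 1 log2 CPM and 0.0603 at 7 or more. A decrease of 0.30, the median size called at 7 or more, could thus hardly be called at the lowest levels. Summed over the called genes of each direction, levels rose by 10411 CPM and fell by 34986 CPM. The totals over all genes given above were lower in PI, so summed levels of the 2 groups compare unlike totals. The count of calls was 1015 with a prior variance that had no trend with level, and the share of calls that were higher, 49.1%, was 37.7% after centring on the median gene of CL and of PI (a shift of 0.03). Single calls that were lost with no trend, with a robust prior variance or with that centring are called setting-dependent here.

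**Figure D1:**
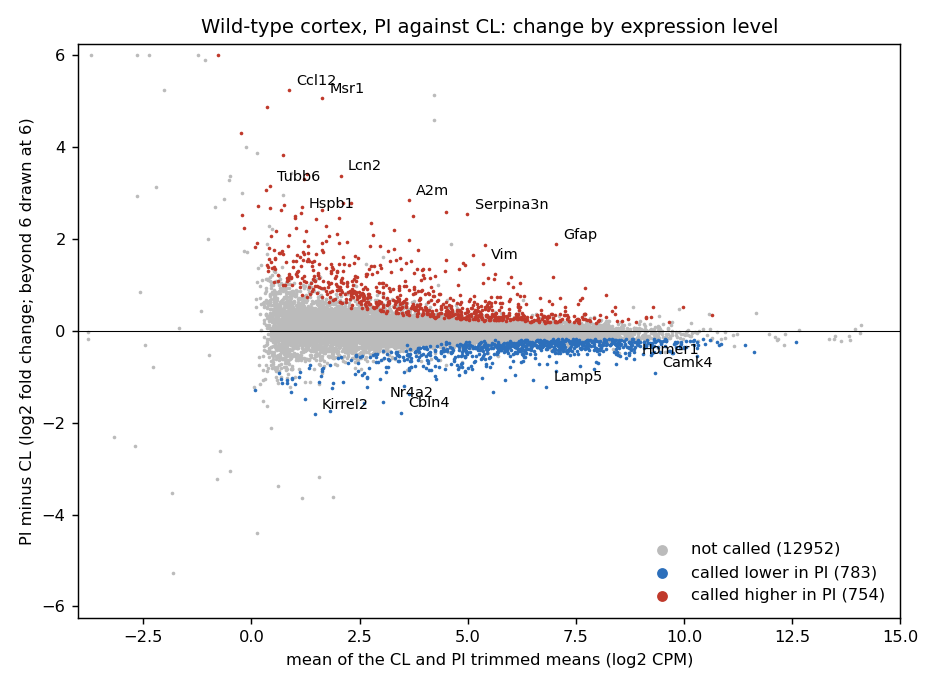
Change in PI against CL (log2 fold change, vertical axis) plotted against the mean level of the 2 groups (log2 CPM, horizontal axis), 1 point per gene, with changes beyond 6 drawn at 6; 754 genes called higher are red, 783 called lower are blue and the rest grey. The red points reach above 5 at low levels, while the blue points stay above -2 and make up 19.8% of genes at 7 log2 CPM or more.

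The genes with the largest increases included chemokines and a scavenger receptor. Ccl12, a chemokine that attracts monocytes (chromosome 11, 82101845 to 82103400), stood at -3.03, -1.58 and -0.79 log2 CPM in CL and 3.18, 3.38 and 4.07 in PI. The groups did not overlap, and the change was 5.25 (SE 0.55, adjusted p = 0.000113), a 37.9-fold difference that starts from few reads. Msr1, a scavenger receptor of macrophages, stood at -2.75, -1.01 and 1.20 in CL and 4.0, 4.11 and 4.48 in PI. Its CL libraries were far apart and its PI libraries close together (change 5.07, SE 0.86, adjusted p = 0.00254). The pattern recognition protein Ptx3 (change 4.88, SE 0.55, adjusted p = 0.000192), the iron-scavenging lipocalin Lcn2 (change 3.38, SE 0.20, adjusted p = 1.87e-06), the protease inhibitor A2m (change 2.84, SE 0.18, adjusted p = 2.11e-06) and the actin crosslinker Flnc (change 2.78, SE 0.21, adjusted p = 1.07e-05) followed, with Gm49339 (change 3.83), Cd14 (change 3.41) and Ccl9 (change 3.31). For Tgm1, a transglutaminase, all recoverable CL values lay under the limit, and PI was at least 11.7-fold higher (adjusted p = 0.0388). Among the increases with the smallest p were the endocytic adaptor Dab2 (change 1.52, SE 0.09, adjusted p = 1.87e-06) and protein S, Pros1 (change 1.36, SE 0.08, adjusted p = 2.11e-06), besides Gfap, Lcn2 and A2m. Dab2 stood at 2.87, 2.95 and 2.97 log2 CPM in CL and 4.39, 4.46 and 4.48 in PI, with all recoverable PI values within 0.1 of each other.

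The largest decreases were smaller than the largest increases, with none of 2 or more. Cbln4, a secreted organizer of synapses (chromosome 2, 172036233 to 172043466), stood at 4.08, 4.37 and 4.57 log2 CPM in CL and at 2.28, 2.57 and 2.83 in PI, without overlap, and fell by 1.78 (SE 0.18, adjusted p = 7.42e-05). Kirrel2, an adhesion molecule, fell by 1.81 (SE 0.29, adjusted p = 0.00172) from a low level, 2.04, 2.40 and 2.63 log2 CPM in CL, to 0.02, 0.62 and 0.96 in PI. Ankrd63 (change -1.75), the secreted Wnt antagonist Frzb (change -1.58), Crispld1 (change -1.37) and the activin antagonist Fst (change -1.25) also fell. The decreases with the smallest p were in well expressed genes. Camk4, a calcium-dependent kinase of neurons, went from 9.67, 9.80 and 9.85 to 8.80, 8.86 and 8.94 log2 CPM (change -0.91, SE 0.07, adjusted p = 6.75e-06). Cadps2, which primes dense-core vesicles, had its recoverable CL values within 0.02 of each other, 7.47, 7.48 and 7.49, and stood at 6.45, 6.65 and 6.69 in PI (change -0.87, adjusted p = 1.65e-05). Tgm1, of the genes named in these comparisons over all genes, was setting-dependent, as was Gpr34 among the decreases.

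Astrocyte reactivity genes had the highest median change of the lists examined. The lists were chosen with earlier results of these data known, so this rank is not a test. Of 20 measured, 16 rose, 0 fell, and the median change was 2.10, against 0.01 over all genes. The intermediate filaments came first. Gfap, the filament protein that marks reactive astrocytes (chromosome 11, 102887336 to 102900912), stood at 5.91, 6.16 and 6.21 log2 CPM in CL and 7.79, 8.01 and 8.15 in PI. All recoverable PI values lay more than 1.5 above all CL values, and the change was 1.88 (SE 0.11, adjusted p = 1.87e-06), a 3.69-fold difference. Vimentin, Vim (change 1.45, SE 0.11, adjusted p = 7.66e-06), and nestin, Nes (change 2.10, SE 0.24, adjusted p = 0.000217), rose with it, whereas the fourth filament gene, Synm, stood at -0.06 and was not called. Of the 16 secreted and surface proteins 13 rose, with a median of 2.43 over all 16. Serpina3n, a protease inhibitor (chromosome 12, 104406729 to 104414329), stood at 3.16, 3.82 and 4.08 in CL and 6.14, 6.24 and 6.43 in PI (change 2.54, SE 0.21, adjusted p = 1.86e-05). Steap4, a metalloreductase, rose by 3.07 (adjusted p = 0.000141) and Cd44, the hyaluronan receptor, by 2.36 (adjusted p = 5.7e-06). The median SD of these genes was 0.16 in PI and 0.32 in CL. However, 19 of the 20 had lower levels in CL, and spread depends on level. Over all genes the median SE was 0.334 under 1 log2 CPM and 0.0734 from 5 to 7. A difference between animals cannot be told apart here from that of level.

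Homeostatic astrocyte markers did not follow the reactive ones. Of 17, 1 rose and 6 fell, with a median of -0.22, 41.2% called against 10.6% of all genes. Of all genes at 7 log2 CPM or more, the range of Slc1a2, 19.8% were called lower. The summed level of the list was 9863 to 10402 CPM in CL and 8415 to 9023 CPM in PI. Glutamine synthetase, Glul (change -0.47, SE 0.08, adjusted p = 0.00163), which converts glutamate taken up from synapses, the gap junction gene Gja1 (change -0.35), the acyl-CoA synthetase Acsl3 (change -0.37) and Gjb6 (change -0.26) fell. The glutamate transporter Slc1a2, named for its role, went from 12.64, 12.72 and 12.74 to 12.43, 12.47 and 12.53 log2 CPM. That decrease was 0.23 (SE 0.06, adjusted p = 0.0211). The water channel Aqp4 was the 1 that rose (0.27, SE 0.06, adjusted p = 0.0125). Of these, Gja1, Acsl3, Gjb6, Slc1a2 and Aqp4 were setting-dependent.

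**Figure D2:**
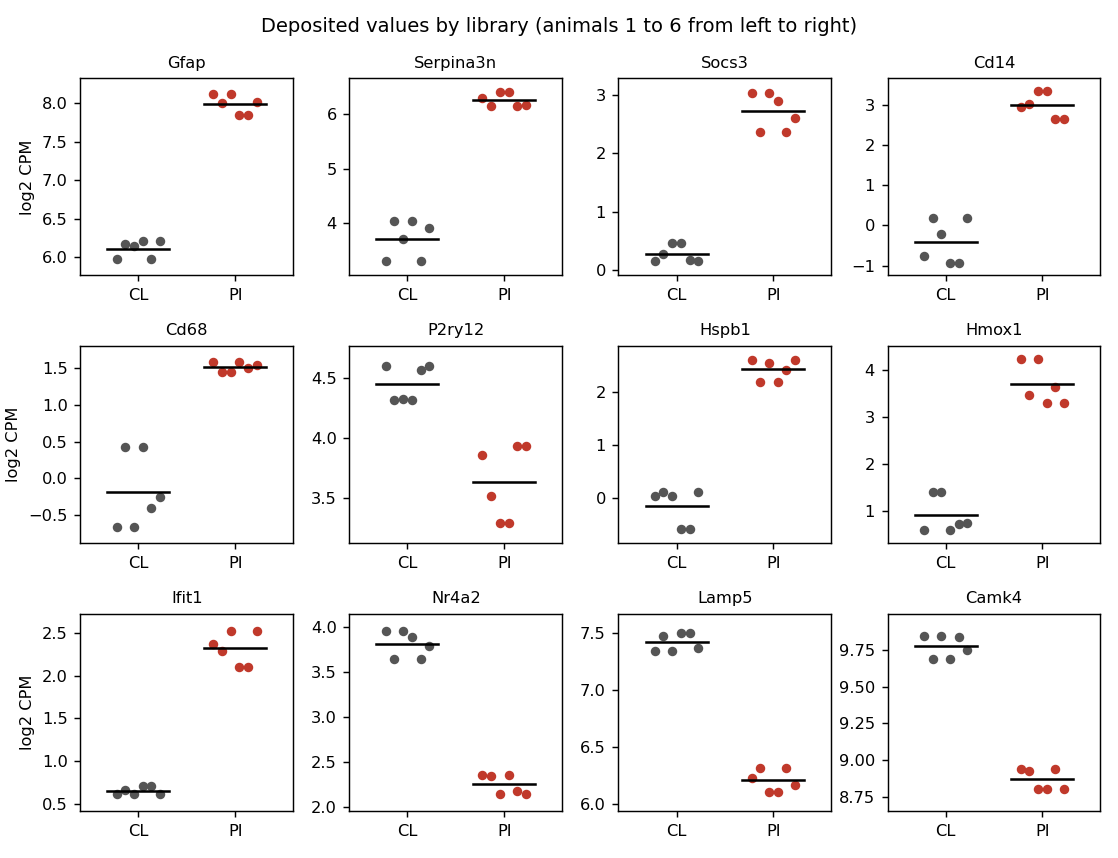
Deposited values (log2 CPM, vertical axis, drawn in to the quartiles of each group) of 12 genes in the 6 CL libraries (grey) and the 6 PI libraries (red), animals 1 to 6 from left to right; bars are the trimmed means of the recoverable values. The groups are apart in all 12 genes, higher in PI for 8 of them, such as Gfap and Cd14, and lower for P2ry12, Nr4a2, Lamp5 and Camk4.

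Of 21 genes of the acute phase and of STAT3 signalling 10 rose, 0 fell and 11 were not called (median 0.54). Cytokines of the interleukin 6 family signal through a shared chain and STAT3, and STAT3 induces its own brake. The ligands Il6, Lif and Osm were not analysed here, so the list speaks of receptors and targets. The oncostatin M receptor, Osmr, stood at 2.24, 2.40 and 2.91 log2 CPM in CL and 4.43, 5.15 and 5.25 in PI (change 2.51, SE 0.24, adjusted p = 6.35e-05). The shared chain Il6st rose by 0.31 (adjusted p = 0.00659). Stat3 itself went from 4.83, 4.88 and 4.99 to 5.84, 6.08 and 6.17 (change 1.15, SE 0.09, adjusted p = 1.95e-05). Socs3, the brake, went from 0.15, 0.23 and 0.53 to 2.28, 2.75 and 3.09 (change 2.43, SE 0.26, adjusted p = 0.000115). In each of these genes the groups did not overlap. The interleukin 4 and 13 receptor chains Il13ra1 (change 1.36) and Il4ra (change 1.19) and the transcription factor Cebpd (change 1.28) also rose. Il1rn, the natural antagonist of interleukin 1, stood at the floor of 0.001 CPM in every recoverable CL library and at 0.80, 2.02 and 2.50 in PI, at least 6.92-fold higher against the limit of 3 reads per library (adjusted p = 0.024).

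A STAT motif, TTCNNNGAA searched on both strands, was looked for in the 300 bases from 250 before to 50 after the start of each gene in RefSeq promoters of GRCm38.p6. It was present in 5 of the 18 astrocyte reactivity genes with a promoter in that table (27.8%) and in 2 of 18 acute phase and STAT3 genes (11.1%), against 8.30% of 32851 promoters. Among the astrocyte reactivity genes it was held by 4 of the 15 that rose and by 1 of the 3 not called. Among the acute phase and STAT3 genes it was held by 1 of the 9 that rose and by 1 of the 9 not called. Here and in the later motif counts a gene holds a motif if any of its promoters does. The share of all promoters counts each promoter singly, so a gene with several promoters has more chances of a match. Windows of 60 bases are shown for Socs3, Steap4 and Emp1, which rose and hold a match, with the match in capitals, read on the strand of the gene. They lie at chr11:117969487-117969546 (minus strand), chr5:7960332-7960391 (plus) and chr6:135362791-135362850 (plus).
Socs3: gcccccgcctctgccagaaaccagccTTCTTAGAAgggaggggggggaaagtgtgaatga
Steap4: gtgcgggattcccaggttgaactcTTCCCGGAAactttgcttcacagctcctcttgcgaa
Emp1: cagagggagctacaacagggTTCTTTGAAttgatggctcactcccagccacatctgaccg
The matches start at positions -154, -116 and -120 relative to the start that RefSeq gives. GENCODE M21 starts Socs3 at base 117970047 (minus strand) and Emp1 at base 135362545 (plus). By those starts the windows of Socs3 and Emp1 lie inside the genes. Emp1, an epithelial membrane protein, rose by 1.91 (SE 0.31, adjusted p = 0.00186). A match in such a window describes the letters there and does not show binding.

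Microglia markers split. Of 15 homeostatic markers 5 rose and 3 fell, with a median of 0.14, and their summed level was 209 to 224 CPM in CL and 229 to 266 CPM in PI. The purinergic receptor P2ry12, through which resting microglia sense nucleotides, stood at 4.32, 4.45 and 4.61 log2 CPM in CL and 3.22, 3.69 and 3.95 in PI (change -0.82, SE 0.19, adjusted p = 0.0139). The lectin Siglech (change -0.96, SE 0.18, adjusted p = 0.00492) and the lysophospholipid receptor Gpr34 (change -1.22, SE 0.33, adjusted p = 0.0324) fell too. Their PI libraries were spread more widely than their CL libraries, without overlap. On the other side Fcrls, a receptor-like gene restricted to brain microglia, went from 2.14, 2.36 and 2.79 to 3.88, 4.22 and 4.47 (change 1.79, SE 0.21, adjusted p = 0.000259). The integrin chain Itgam (change 1.08), Aif1 (change 0.95), which encodes the marker IBA1, and Olfml3 (change 0.77) rose as well. P2ry12 and Gpr34 were setting-dependent.

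Genes of phagocytosis and activation rose in 14 of 20 cases, and 1 fell (median 0.86). The lysosomal protein Cd68 stood at -0.76, -0.33 and 0.66 log2 CPM in CL and 1.43, 1.52 and 1.60 in PI, without overlap (change 1.71, SE 0.39, adjusted p = 0.0136). The lipopolysaccharide coreceptor Cd14 went from -0.98, -0.49 and 0.32 to 2.57, 2.98 and 3.46 (change 3.41, SE 0.38, adjusted p = 0.000163). Fc receptors, which bind antibody, rose by 1.64 for Fcgr2b and by 1.53 for Fcgr1, both named for their role. Apoe, a lipid carrier made mainly by astrocytes, was the member that fell, from 8.23, 8.30 and 8.36 to 7.58, 7.84 and 7.91 (change -0.50, SE 0.09, adjusted p = 0.00263). Blood leukocyte markers gave almost no values. Of 17 neutrophil and monocyte markers only Csf3r was analysed here, at a summed level of 1.35 to 1.69 CPM in CL and 1.33 to 1.61 CPM in PI, and S100a8, S100a9, Ly6g, Ly6c2, Ccr2 and the other members were not analysed here. Of 11 lymphocyte markers only Trbc2 was, at 5.48 to 6.24 CPM in CL and 5.29 to 7.01 CPM in PI. The share of these cells in the increases of myeloid genes was not tested.

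Innate sensing and NF-kappaB genes rose in 9 of 25 cases with 0 lower (median 0.32). Receptors had the largest single changes. Tlr2, a sensor of bacterial lipids and tissue debris, stood at -1.04, -0.62 and -0.22 log2 CPM in CL and 1.76, 2.09 and 2.50 in PI (change 2.73, SE 0.34, adjusted p = 0.000337), and the tumour necrosis factor receptor Tnfrsf1a went from 1.60, 1.83 and 2.01 to 3.41, 3.74 and 3.78 (change 1.85, SE 0.16, adjusted p = 3.32e-05). The alarmin Il33, which sits in nuclei of glia and is released from damaged cells, rose by 1.43 (SE 0.17, adjusted p = 0.000217). Tnf, Il1a and Il1b were not analysed here. Chemokine genes rose in 6 of 10 cases and fell in 1 (median 0.61). Ccl2, the main attractant of monocytes, lay under the limit in all recoverable CL libraries and at 1.64, 1.95 and 2.15 log2 CPM in PI, at least 7.37-fold higher (adjusted p = 0.000107). Ccl9 went from -0.98, -0.40 and 0.05 to 2.54, 2.91 and 3.15 (change 3.31, SE 0.32, adjusted p = 5.79e-05). The neuronal chemokine Cx3cl1 fell, by 0.40 (SE 0.08, adjusted p = 0.00548), while its microglial receptor Cx3cr1 rose by 0.71 (SE 0.20, adjusted p = 0.0387). The call of Cx3cr1 was setting-dependent.

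Complement genes rose in 8 of 13 cases with 0 lower (median 0.66). Components and receptors both took part. C4b, which opsonizes, went from 3.21, 3.56 and 3.86 to 4.24, 4.74 and 5.04 log2 CPM (change 1.14, SE 0.22, adjusted p = 0.00572). The anaphylatoxin receptors C5ar1 (change 2.24, SE 0.41, adjusted p = 0.00403) and C3ar1 (change 1.93, SE 0.18, adjusted p = 5.31e-05) had the largest changes. C1qb, a chain of the recognition molecule C1q, went from 3.33, 3.50 and 3.57 to 4.31, 4.35 and 4.38 (change 0.87, SE 0.10, adjusted p = 0.00015), and the other C1q chains, named for their role, rose by 0.69 for C1qa and by 0.54 for C1qc. C3, the protein on which the receptors' ligands and the pathways converge, was not analysed here. Of 8 antigen presentation genes 2 rose and 0 fell (median 0.34). The peptide transporter Tap1 rose by 1.07 (adjusted p = 0.0348) and the class I heavy chain H2-K1 by 0.74 (adjusted p = 0.00613). Reads of class I genes can be shared between near-identical copies, so the value of H2-K1 is uncertain. Among annexins, S100 proteins and galectins, which bind calcium or sugars at membranes, 8 of 19 rose and 0 fell (median 0.36), led by S100a11 (change 2.18, SE 0.38, adjusted p = 0.00271) and Anxa2 (change 1.25, SE 0.21, adjusted p = 0.00271). Lgals9, a galectin, rose by 1.06 (adjusted p = 0.0498) in a setting-dependent call.

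Interferon-stimulated genes rose in 13 of 20 cases, 0 fell, and all 20 changes were positive (median 0.85). Type I and type II interferons act through STAT and IRF transcription factors, and their targets block viral replication or present antigen. Of the transcription factors, Irf9, named for its role, rose by 1.36 (SE 0.18, adjusted p = 0.000539). The guanylate-binding protein gene Gbp2 stood at -0.18, 0.58 and 1.37 log2 CPM in CL and 2.28, 2.84 and 3.50 in PI (change 2.28, SE 0.44, adjusted p = 0.00519), and Gbp3 went from 0.45, 0.76 and 0.96 to 2.18, 2.81 and 2.99 (change 1.96, SE 0.26, adjusted p = 0.000521). Ifit1, an RNA-binding antiviral protein, had CL values of 0.61, 0.64 and 0.73 and PI values of 2.03, 2.34 and 2.58 (change 1.67, SE 0.21, adjusted p = 0.000418). The groups did not overlap in any of these genes. Ifit3 rose by 1.04 (adjusted p = 0.000938) and its neighbour and near-copy Ifit3b by 1.08 (adjusted p = 0.0446, setting-dependent), and how the authors' counting split reads between them is uncertain. Oasl2 had a larger change, 2.22, and was not called (adjusted p = 0.0685), with CL libraries from -2.54 to 0.53 log2 CPM, although it passed when values under 0.5 CPM were raised to 0.5 CPM.

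The interferon-stimulated response element was searched as GAAA, any 2 bases and GAAA again on both strands in the same 300 bases. It was present in 10 of the 16 interferon-stimulated genes with a promoter in the table (62.5%). Of all promoters, counted singly, 3.44% held it. It was held by 9 of the 12 that rose and by 1 of the 4 that were not called. Windows of 60 bases are shown for 4 that rose, with the matches in capitals. On the strand of each of these genes the element reads in reverse, as a pair of TTTC with 2 bases between. The windows lie at chr19:34640769-34640828 (Ifit1), chr19:34583364-34583423 (Ifit3), chr3:142620583-142620642 (Gbp2) and chr3:142559974-142560033 (Gbp3), all on the plus strand.
Ifit1: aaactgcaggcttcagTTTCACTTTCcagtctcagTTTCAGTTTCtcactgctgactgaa
Ifit3: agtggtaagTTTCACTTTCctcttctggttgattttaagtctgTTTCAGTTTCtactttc
Gbp2: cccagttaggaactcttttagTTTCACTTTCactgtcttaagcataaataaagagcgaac
Gbp3: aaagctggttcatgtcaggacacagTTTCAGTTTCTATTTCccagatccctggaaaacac
Ifit1 and Ifit3 each hold 2 separate matches, and the 2 matches of Gbp3 overlap. The window of Ifit3b, at chr19:34607760-34607819, is the same as that of Ifit3 in 60 of 60 bases.

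Heat shock proteins rose in 9 of 13 cases and none of the 13 fell, while of 13 cochaperones 0 rose and 1 fell. Heat shock proteins hold unfolded proteins and are switched on by HSF1 when proteins misfold. The inducible HSP70 gene Hspa1b stood at 3.06, 3.22 and 3.35 log2 CPM in CL and 5.04, 5.81 and 6.53 in PI (change 2.59, SE 0.35, adjusted p = 0.000649), and its near-identical neighbour Hspa1a went from 2.82, 2.93 and 3.20 to 3.71, 4.87 and 5.47 (change 1.76, SE 0.39, adjusted p = 0.0121). PI libraries were spread widely and did not overlap CL in either gene, and reads may be split between them, so each value is uncertain. The small heat shock protein Hspb1, which guards the cytoskeleton, went from -0.79, 0.04 and 0.15 to 2.12, 2.48 and 2.62 (change 2.57, SE 0.31, adjusted p = 0.000289). Hspb8 (change 0.82) also rose. The abundant cytosolic chaperone Hsp90aa1, named for its role, went from 10.44, 10.47 and 10.49 to 10.65, 10.79 and 10.997 (change 0.34, adjusted p = 0.0192). Over the 13 heat shock proteins the median SD was 0.05 in CL and 0.22 in PI, and over all 26 genes of the list 0.08 and 0.15. The cochaperone that fell was Dnajb5 (change -0.35, SE 0.08, adjusted p = 0.017). Calls of Hspa1a, Hspb8, Hsp90aa1 and Dnajb5 were setting-dependent.

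A heat shock element pair is TTCNNGAA or GAANNTTC, each of which reads the same on both strands. It was present in 13 of the 21 genes of the list with a promoter in the table (61.9%). Of all promoters, counted singly, 15.1% held it. All 7 that rose and had a promoter held it, as did 6 of the 13 that were not called. Windows are shown for Hspb1, Hspa1b and Hspe1, with the pairs in capitals. Hspb1 is shown at chr5:135887794-135887853 (plus strand), Hspa1b at chr17:34959309-34959368 (minus strand) and Hspe1 at chr1:55088038-55088097 (plus strand).
Hspb1: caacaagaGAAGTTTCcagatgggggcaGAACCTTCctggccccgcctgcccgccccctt
Hspa1b: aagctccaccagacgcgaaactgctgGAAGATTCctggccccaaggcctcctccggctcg
Hspe1: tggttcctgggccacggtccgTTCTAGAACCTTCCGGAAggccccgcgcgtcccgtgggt
Hspe1 and Hspd1, the small mitochondrial chaperonin and its larger partner, start from a shared promoter in opposite directions, and the 3 overlapping pairs of the Hspe1 window are the ones of Hspd1 on the other strand. Both rose, Hspe1 from 4.69, 4.72 and 4.75 to 5.18, 5.35 and 5.75 log2 CPM (change 0.69, SE 0.14, adjusted p = 0.00672) and Hspd1 from 6.91, 6.95 and 6.99 to 7.06, 7.35 and 7.54 (change 0.37, SE 0.11, adjusted p = 0.0431, setting-dependent).

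Oxidative stress genes driven by NRF2 rose in 6 of 19 cases with 0 lower (median 0.28). Haem oxygenase 1, Hmox1, which breaks down haem, stood at 0.56, 0.73 and 1.62 log2 CPM in CL and 3.24, 3.55 and 4.41 in PI, without overlap (change 2.78, SE 0.36, adjusted p = 0.000448). The cystine transporter Slc7a11 went from 5.60, 5.70 and 5.75 to 6.49, 6.75 and 6.97 (change 1.05, SE 0.12, adjusted p = 0.000217), and sulfiredoxin, Srxn1 (change 0.75), and thioredoxin reductase, Txnrd1 (change 0.55), rose with it. The antioxidant response element TGACNNNGC, on either strand, was present in 8 of the 16 of these genes with a promoter. It was held by 3 of the 4 of them that rose and by 5 of the 12 that were not called. Of all promoters, counted singly, 12.4% held it. Metallothionein and iron genes rose in 6 of 13 cases with 0 lower (median 0.28). The zinc-binding Mt2 went from 4.32, 4.41 and 4.69 to 6.10, 6.33 and 6.57 (change 1.87, SE 0.14, adjusted p = 7.66e-06) and Mt1 from 4.90, 5.02 and 5.11 to 6.05, 6.23 and 6.47 (change 1.23, SE 0.11, adjusted p = 3.69e-05). Transferrin, Trf, had a PI range of 5.89 to 6.99 and rose by 1.18 (adjusted p = 0.00743) in a setting-dependent call. Of 31 ER and integrated stress response genes 4 rose and 0 fell (12.9% called, median 0.20). Of 14 ER chaperones 1 was called (7.14%), and both shares are near the 10.6% of all genes. The mitochondrial folate enzyme Mthfd2 (change 0.70) and the factor Atf4 (change 0.24) were among the calls, the latter setting-dependent.

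Of 18 hypoxia genes 3 rose and 0 fell (median 0.11), 16.7% called against 10.6% of all genes. Hexokinase 2, Hk2 (change 0.95, SE 0.18, adjusted p = 0.00543), lactate dehydrogenase A, Ldha (change 0.38, SE 0.07, adjusted p = 0.00419), and the kinase Pdk1 (change 0.34, SE 0.07, adjusted p = 0.0076), which shuts pyruvate out of mitochondria, rose, whereas Vegfa, the angiogenic factor, was at 0.11 (adjusted p = 0.503) and was not called. Of 16 glycolytic enzymes 3 rose and 1 fell, and their median, 0.02, was -0.01 after centring. Ldhb, the lactate dehydrogenase chain of oxidative cells, fell by 0.31 (SE 0.07, adjusted p = 0.0165, setting-dependent). Respiratory chain genes of the nucleus showed 1 call among 29 (3.45%, median -0.03) and mitochondrially encoded genes showed 0 among 15 in the trimmed-mean test (median -0.17), 4 with p under 0.05 unadjusted and 11 by limma on the deposited values. Of these mt-Nd4l, at -0.33, and mt-Rnr2, at 0.38, had the smallest p values. Ribosomal protein genes rose in 7 of 40 cases with 0 lower (17.5% called, median 0.12), the largest being Rplp0 (change 0.40, SE 0.09, adjusted p = 0.0164). These genes have many processed copies in the genome, and their reads may be shared with them. All 7 calls of this list were setting-dependent. Proteasome genes showed 1 call among 27 (3.70%, median 0.14), Psma3 (change 0.27, SE 0.05, adjusted p = 0.00406).

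Death and growth arrest genes moved as single members. Of 17 cell death genes 2 rose and 1 fell (median 0.31), 17.6% called against 10.6% of all genes. Pmaip1, which encodes the death promoter NOXA, rose by 0.88 (SE 0.18, adjusted p = 0.00783), and the survival factor Mcl1 went from 5.43, 5.53 and 5.56 to 5.95, 6.05 and 6.12 log2 CPM (change 0.53, SE 0.07, adjusted p = 0.00048). The survival factor Bcl2 fell, from 4.62, 4.65 and 4.72 to 4.17, 4.23 and 4.31 (change -0.43, SE 0.08, adjusted p = 0.00405). The apoptosis receptor Fas, named for its role, was at 0.94 and missed the threshold (adjusted p = 0.0975). Of 14 p53 targets and growth arrest genes 4 rose and 1 fell (35.7% called, median 0.11). The stress genes Gadd45b (change 1.24, SE 0.15, adjusted p = 0.000367) and Gadd45g (change 1.21, SE 0.23, adjusted p = 0.00445) and the cell cycle inhibitor Cdkn1a (change 0.81, SE 0.12, adjusted p = 0.000893) rose. Of 12 replication and cell cycle genes 1 was called (8.33%, near the 10.6% of all genes, median 0.17). It was the cyclin Ccnd1 (change 0.64, SE 0.12, adjusted p = 0.00461).

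Vascular genes were taken as activation genes and as markers of identity. Of 11 endothelial activation genes 6 rose and 0 fell (median 0.73). The matrix protease Adamts9 went from 1.88, 2.08 and 2.74 to 4.24, 4.33 and 4.66 log2 CPM (change 2.19, SE 0.22, adjusted p = 9.01e-05). The leukocyte adhesion molecule Icam1 (change 1.83, SE 0.42, adjusted p = 0.0148) and the related protease Adamts1 (change 1.54) rose, as did thrombomodulin, Thbd (change 1.44), an anticoagulant named for its role. Of 20 endothelial markers 1 rose, Ly6a (change 0.77, SE 0.11, adjusted p = 0.000661), and 2 fell, Cd34 (change -0.97, SE 0.11, adjusted p = 0.000221) and Itm2a (change -0.51) (median 0.17), 3 calls of 20 against 10.6% of all genes. Their summed level was 405 to 475 CPM in CL and 360 to 447 CPM in PI. Of 10 pericyte and smooth muscle markers 1 was called, near the 10.6% of all genes, Cspg4 (change -0.53), at a median of -0.13. Fibroblast and meningeal markers had 1 higher, Dcn (change 1.32, SE 0.18, adjusted p = 0.000654), and 2 lower, Igf2 (change -0.76, SE 0.10, adjusted p = 0.000367) and Ptgds (change -0.67), of 11. Haemoglobin transcripts, a sign of blood left in the sample, had 0 calls among 4 in the trimmed-mean test (0 with p under 0.05 unadjusted, 0 by limma on the deposited values), with Hba-a1 at 1.14 and Hba-a2 at 0.97, and their summed level was 12.3 to 52.1 CPM in CL and 30.0 to 50.4 CPM in PI. Setting-dependent calls were those of Itm2a and Ptgds.

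Matrix, protease and integrin genes rose in 11 of 36 cases and fell in 3 (median 0.11). The inhibitor Timp1 (change 2.71, SE 0.36, adjusted p = 0.000591) and the matricellular proteins Thbs1 (change 2.06, SE 0.42, adjusted p = 0.00733) and Tnc (change 1.71, SE 0.35, adjusted p = 0.00699) led. Osteopontin, Spp1, an attractant of phagocytes, stood at 3.89, 4.31 and 4.67 log2 CPM in CL and 5.71, 5.99 and 6.08 in PI (change 1.65, SE 0.18, adjusted p = 0.00016). Among integrins, 4 of 8 rose, with Itga5 at 1.53 (adjusted p = 0.00117). The laminin chain Lamc3 (change -0.75), Sparcl1 (change -0.31), secreted by astrocytes, and Lama2 (change -0.25) fell, and the calls of Sparcl1 and Lama2 were setting-dependent. Growth factor and TGF-beta genes rose in 6 of 27 cases and fell in 2 (median 0.22). Ligands that rose included Fgf2, from 3.35, 3.40 and 3.53 to 4.35, 4.57 and 4.83 (change 1.16, SE 0.13, adjusted p = 0.000168), and Hbegf (change 1.04, SE 0.17, adjusted p = 0.00209), and Tgfbi (change 1.57, SE 0.29, adjusted p = 0.00393), a matrix protein induced by TGF-beta, had the largest change. The neurotrophin receptor Ntrk2 fell by 0.31 (SE 0.05, adjusted p = 0.000967). Of 19 Wnt pathway genes 1 rose and 2 fell, 15.8% called against 10.6% of all genes. The antagonist Frzb went from 3.26, 3.35 and 3.57 to 1.04, 2.04 and 2.08 (change -1.58, SE 0.27, adjusted p = 0.00263), and the median of that list, 0.00, changed sign with the scaling.

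**Figure D3:**
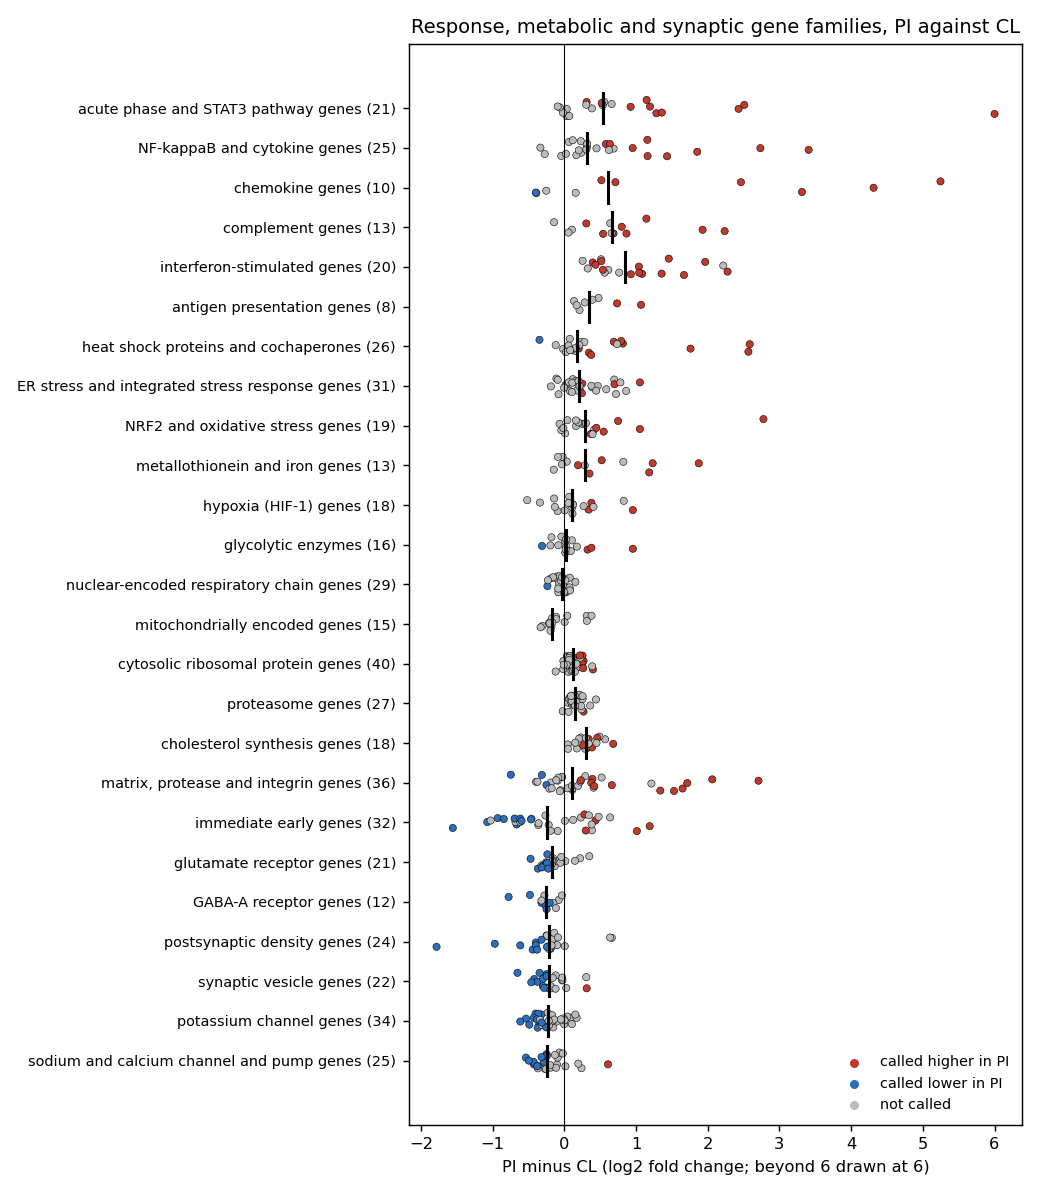
Change in PI against CL (log2 fold change, horizontal axis, values beyond 6 drawn at 6) of each measured member of 25 response, metabolic and synaptic gene lists, the number measured being given in parentheses; red points were called higher, blue lower and grey not called, and the bar is the median. Cytokine, interferon and heat shock lists have long tails to the right, reaching 5.25 for Ccl12, with Il1rn drawn at the edge, while synaptic and channel lists sit slightly to the left with medians from -0.17 to -0.25.

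Oligodendrocyte genes were lower as far as they were called. Of 16 myelin genes 3 fell and 0 rose (median -0.36), 18.8% called against 10.6% of all genes. Aspa, the aspartoacylase of oligodendrocytes, went from 4.28, 4.36 and 4.64 to 3.46, 3.81 and 3.96 log2 CPM (change -0.65, SE 0.15, adjusted p = 0.0134). Mal (change -0.45, SE 0.12, adjusted p = 0.0346) and Cnp (change -0.41, SE 0.10, adjusted p = 0.0167) also fell, and all 3 calls were setting-dependent. The summed level of the list was 2463 to 2687 CPM in CL and 1743 to 2429 CPM in PI, and its median SD was 0.10 in CL and 0.29 in PI. Of 11 precursor markers 2 fell and 0 rose (18.2% called, median -0.15). They were the proteoglycan Cspg4 (change -0.53, SE 0.12, adjusted p = 0.0164) and the factor Sox8 (change -0.53, SE 0.12, adjusted p = 0.0119). Of cholesterol synthesis genes 6 of 18 rose, 0 fell and all 18 changes were positive (median 0.30). The sterol oxidase Msmo1 went from 5.89, 5.95 and 6.06 to 6.32, 6.43 and 6.51 log2 CPM (change 0.46, SE 0.07, adjusted p = 0.00173), and the isomerase Idi1 (change 0.39, SE 0.09, adjusted p = 0.0165) rose too. Among 14 genes of lipid efflux and storage 4 rose and 1 fell (median 0.12). The oxysterol enzyme Ch25h (change 2.63, SE 0.42, adjusted p = 0.00182) and the lipid droplet protein Plin2 (change 1.77, SE 0.27, adjusted p = 0.00119) had the largest changes. Of these lipid genes the calls of Idi1, Lpl and Apod were setting-dependent.

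**Figure D4:**
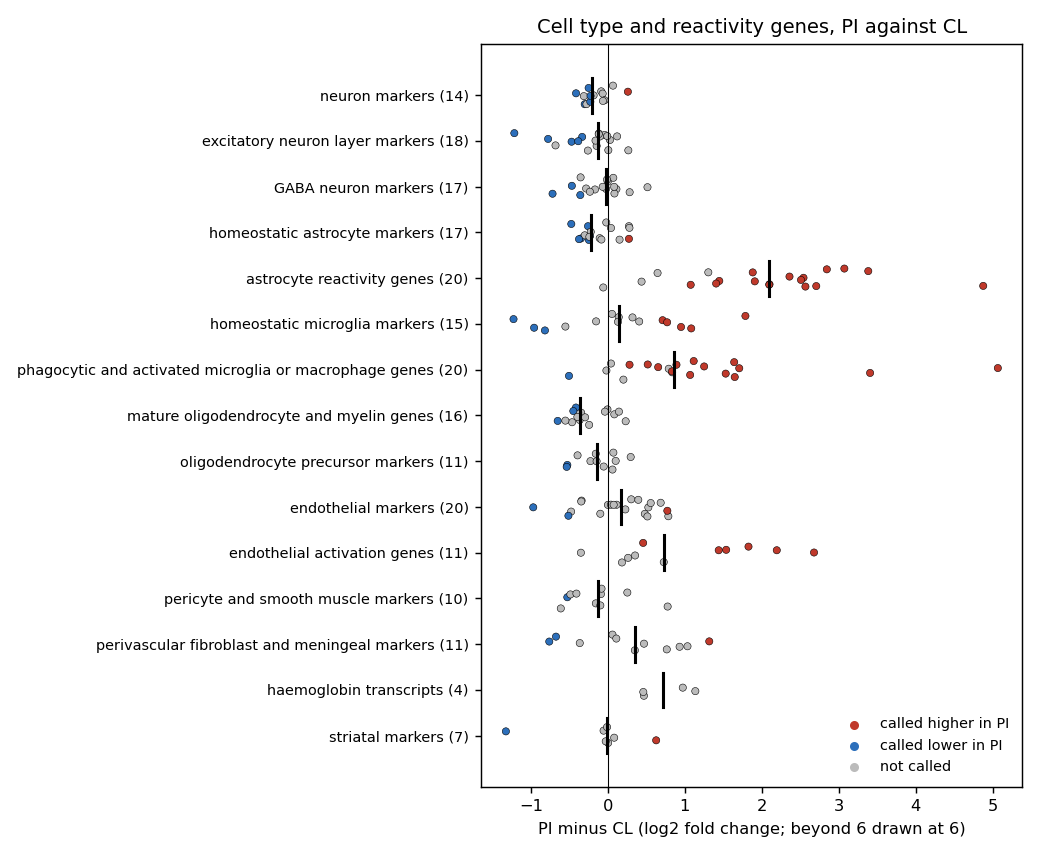
Change in PI against CL (log2 fold change, horizontal axis) of each measured member of 15 lists of cell type and reactivity genes, the number measured being given in parentheses; red points were called higher, blue lower and grey not called, and the bar is the median. Astrocyte reactivity genes have the highest median, 2.10, and mature oligodendrocyte and myelin genes the lowest, -0.36.

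Some neuron markers fell. Of 14, 5 fell and 1 rose (median -0.20), 42.9% called against 10.6% of all genes. Of all genes at 7 log2 CPM or more, the range of Nefl and Snap25, 19.8% were called lower. The summed level of the list was 9348 to 9890 CPM in CL and 8055 to 8819 CPM in PI, both ranges being drawn in. The neurofilament Nefl went from 8.93, 9.01 and 9.03 to 8.47, 8.57 and 8.72 log2 CPM (change -0.41, SE 0.07, adjusted p = 0.00291), and the vesicle fusion protein Snap25 from 11.47, 11.59 and 11.64 to 11.18, 11.27 and 11.37 (change -0.30, SE 0.07, adjusted p = 0.0167). The ubiquitin hydrolase Uchl1 rose by 0.26 (adjusted p = 0.0378). Of 18 excitatory layer markers 5 fell and 0 rose (27.8% called, median -0.13). Lamp5, a membrane protein of upper-layer and some GABA neurons (chromosome 2, 136052239 to 136069917), stood at 7.34, 7.42 and 7.51 in CL and 6.09, 6.20 and 6.35 in PI, and fell by 1.21 (SE 0.08, adjusted p = 3.26e-06). The layer 4 factor Rorb (change -0.78, SE 0.13, adjusted p = 0.00186) fell too, with Neurod1 (change -0.47), Rasgrf2 (change -0.38) and Cux1 (change -0.33). Of 17 GABA neuron markers 3 fell and 0 rose (17.6% called, median -0.02). Among them were the calcium buffer Calb1, from 7.14, 7.19 and 7.29 to 6.44, 6.48 and 6.54 (change -0.72, SE 0.06, adjusted p = 2.12e-05), and the peptide Vip (change -0.47). Striatal markers, which would mark tissue from beneath the cortex, had 7 of 13 members measured, of which 1 rose and 1 fell (median -0.01). Ppp1r1b rose by 0.63 (SE 0.15, adjusted p = 0.0159). Changes of the 7 ran from -1.32 to 0.63, with 3 positive and 4 negative. The summed level of that list was 156 to 197 CPM in CL and 138 to 164 CPM in PI, and its part in these results was not tested. Calls of Snap25, Uchl1, Neurod1, Cux1, Vip and Ppp1r1b were setting-dependent.

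Immediate early genes, which neurons switch on within minutes of activity, moved in both directions. Of 32, 5 rose and 9 fell (median -0.24). In the EGR family 3 of 4 fell. Egr1 went from 6.22, 6.43 and 6.49 to 4.95, 5.40 and 5.50 log2 CPM (change -1.08, SE 0.14, adjusted p = 0.00048), Egr4 (change -0.93, SE 0.19, adjusted p = 0.00659) fell as well, and Egr2, named for its role, was at -1.03 without a call (adjusted p = 0.07). In the NR4A family of orphan receptors 2 of 3 fell. Nr4a2 (chromosome 2, 57106830 to 57124003) stood at 3.60, 3.84 and 3.98 in CL and 2.14, 2.26 and 2.37 in PI, far from overlap (change -1.56, SE 0.14, adjusted p = 3.35e-05), and Nr4a1 (change -0.85, SE 0.15, adjusted p = 0.00313) fell as well. Of 6 AP-1 genes 1 was called, Jun, higher in PI at 5.32, 5.37 and 5.56 against 4.91, 4.98 and 5.0 in CL (change 0.43, SE 0.08, adjusted p = 0.00437). Of 19 effectors and others 4 rose and 4 fell. The synaptic scaffold regulator Arc (change -0.69, SE 0.16, adjusted p = 0.0134) and the phosphatases Dusp6 (change -0.60) and Dusp1 (change -0.46) fell, whereas the neuronal pentraxin Nptx2 went from 3.52, 3.66 and 3.76 to 4.67, 4.82 and 5.04 (change 1.19, SE 0.12, adjusted p = 6.8e-05) and the matricellular Ccn1 (change 1.01, SE 0.23, adjusted p = 0.0134) rose. Calls of Arc and Dusp6 were setting-dependent.

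Synaptic genes fell in many small steps. Beside them stands the 19.8% called lower among all genes at 7 log2 CPM or more, the range of many of these genes. Glutamate receptor genes fell in 8 of 21 cases with 0 higher (median -0.17). The AMPA receptor subunit Gria3 went from 8.95, 8.97 and 9.03 to 8.47, 8.51 and 8.52 log2 CPM (change -0.47, SE 0.05, adjusted p = 7.46e-05) and the NMDA receptor subunit Grin2a from 10.13, 10.17 and 10.30 to 9.78, 9.82 and 9.87 (change -0.37, SE 0.06, adjusted p = 0.00177). Postsynaptic density genes fell in 13 of 24 cases with 0 higher (median -0.22). Homer1, a scaffold with an activity-induced short form, went from 9.11, 9.14 and 9.23 to 8.53, 8.54 and 8.56 (change -0.62, SE 0.05, adjusted p = 1.68e-05), Camk2a, the kinase of synaptic strengthening, from 9.84, 9.90 and 9.96 to 9.37, 9.46 and 9.55 (change -0.44, SE 0.06, adjusted p = 0.000783), and Cbln2, a synapse organizer like Cbln4, from 5.20, 5.27 and 5.43 to 4.13, 4.28 and 4.60 (change -0.97, SE 0.13, adjusted p = 0.00061). GABA-A receptor genes fell in 6 of 12 cases, and all 12 changes were negative (median -0.25). The extrasynaptic subunit Gabrd (change -0.78, SE 0.14, adjusted p = 0.00369) fell most. Vesicle release genes fell in 11 of 22 cases and rose in 1 (median -0.21), with syntaxin 1A, Stx1a (change -0.65, SE 0.09, adjusted p = 0.000785), and complexin 2, Cplx2 (change -0.46, SE 0.07, adjusted p = 0.00118), among those lower and synapsin 2, Syn2 (change 0.31, SE 0.05, adjusted p = 0.00232), the one higher.

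Channels and pumps were similar. Potassium channel genes fell in 12 of 34 cases with 0 higher (median -0.23). The leak channel Kcnk2 (change -0.62, SE 0.09, adjusted p = 0.00113), the ERG-type channel Kcnh7 (change -0.54, SE 0.08, adjusted p = 0.000976) and the M-current subunit Kcnq3 fell, the last from 8.85, 8.87 and 8.94 to 8.33, 8.40 and 8.45 log2 CPM (change -0.49, SE 0.05, adjusted p = 0.000141). Sodium and calcium channel and pump genes fell in 9 of 25 cases and rose in 1 (median -0.25). The sodium channel Scn1a went from 8.88, 9.0 and 9.12 to 8.32, 8.47 and 8.61 (change -0.54, SE 0.09, adjusted p = 0.00241). The low-threshold calcium channel Cacna1g rose by 0.61 (adjusted p = 0.0363, setting-dependent). Neuropeptide genes had 2 of 13 lower and 0 higher (15.4% called against 10.6% of all genes, median -0.03), Vip and the prohormone convertase Pcsk1 (change -0.53, SE 0.14, adjusted p = 0.0245), both setting-dependent. Of 21 axon growth and injury genes 3 rose and 5 fell. The tubulin Tubb6, rare in the uninjured brain, went from -1.54, -1.15 and -0.79 to 1.04, 2.16 and 2.64 (change 3.16, SE 0.46, adjusted p = 0.000967) and Tubb2b from 4.12, 4.29 and 4.42 to 4.82, 5.40 and 5.53 (change 1.01, SE 0.17, adjusted p = 0.00271), while the growth inhibitor Rtn4 (change -0.34, SE 0.06, adjusted p = 0.00267) fell.

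Hormone and clock genes called were mostly lower. Of 29, 1 rose and 5 fell (20.7% called against 10.6% of all genes, median -0.19), and 23 of the 29 changes were negative. The clock output factor Hlf went from 8.20, 8.37 and 8.43 to 7.47, 7.51 and 7.58 log2 CPM (change -0.82, SE 0.07, adjusted p = 2.58e-05), and the core clock factor Arntl (change -0.45, SE 0.11, adjusted p = 0.0168) and the sulfotransferase Sult1a1 (change -0.85, SE 0.15, adjusted p = 0.00269) fell. The glucocorticoid receptor Nr3c1, named for its role, was lower by a change of -0.24 (adjusted p = 0.047). Calls of Arntl and Nr3c1 were setting-dependent, and the hour of sampling is not given in the sources used here. Among 11 long noncoding RNAs and small nucleolar RNA hosts 2 rose and 1 fell. Neat1, which builds nuclear paraspeckles, stood at 6.20, 6.39 and 6.56 in CL and 6.90, 7.40 and 8.51 in PI (change 1.16, SE 0.34, adjusted p = 0.0462, setting-dependent), with its PI libraries spread over more than 1.5.

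PI libraries differed in where they stood among the 6 for the called genes. Over all genes the median SD between libraries was 0.105 in CL and 0.116 in PI, and it was larger in PI for 54.2% of genes and for 62.1% of the genes called lower. Among the 213 genes higher by at least 1, PI library 3 was one of the 2 highest in 72.8% and PI library 5 one of the 2 lowest in 50.7%. Among the 783 genes called lower, PI libraries 4 and 6 were among the 2 lowest in 51.1% and 51.2%, and PI library 2 among the 2 highest in 49.0%. PI library 3 was thus high for the increases and, at 43.2% among the 2 lowest, also often low for the decreases. Library 6 was not marked in the increases, with 31.5% and 35.2%. Over 13529 genes, library 4 was among the 2 lowest in 40.8%, and libraries 3, 5 and 6 in 31.7%, 31.9% and 31.3%. Over the same genes, libraries 2 and 3 were among the 2 highest in 33.9% and 31.5%. These are places within PI, not changes from CL in each animal, and carry no test.

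**Figure D5:**
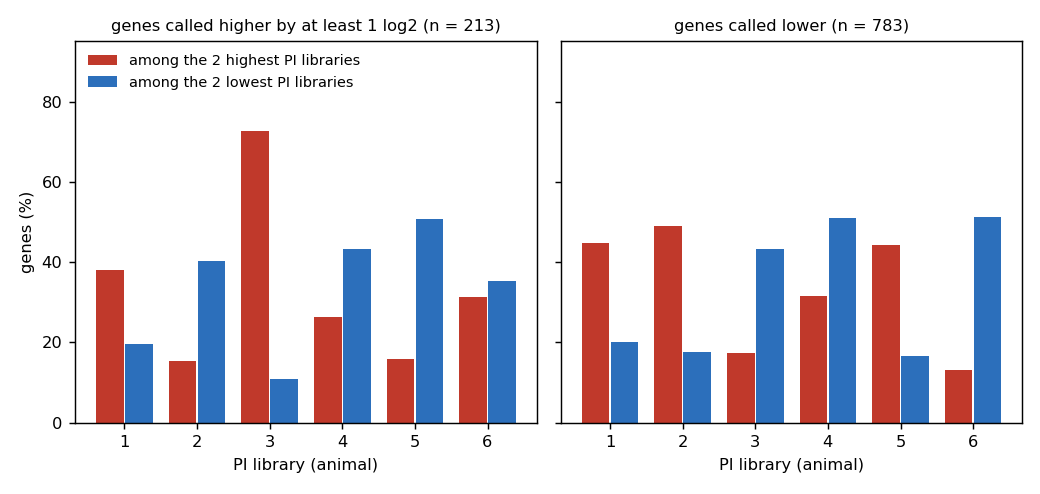
Share of genes (%, vertical axis) in which each PI library (animals 1 to 6, horizontal axis) was among the 2 highest (red) or the 2 lowest (blue) of the 6 PI libraries, for the 213 genes called higher by at least 1 log2 (left) and the 783 genes called lower (right). Library 3 stands out on the left with 72.8% among the highest, and libraries 4 and 6 on the right with 51.1% and 51.2% among the lowest. Over 13529 genes libraries 4 and 6 were among the lowest in 40.8% and 31.3%.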

How the data were processed

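RNA of 6 CL WT and 6 PI WT cortex samples was measured. The table deposited by the authors gives log2 CPM per gene, on mm10 per the submitters' processing notes; the aligner, the counter and the use of strand are not given in the sources used here, so reads of overlapping and antisense genes cannot be told apart. In all 14489 genes the lowest and highest deposited values of each group were equal to the next library's, both having been replaced by a quartile with weights of 0.75 and 0.25. Solving for the second value recovered 4 of 6 values per group. As a check, 92.0% of recovered low values in CL and 89.7% in PI were whole reads within 0.03, against 33.1% and 31.6% as deposited. The lowest value is 0.001 CPM, a gene with no read. No count of reads was tested, since 2 libraries of each gene are lost.

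The main test took the mean of the 4 recovered values per group, a Winsorized variance with 6 residual degrees of freedom, and moderation of the variance by limma 3.58.1 (R 4.3.3) with a trend on level; p is two-sided and adjusted by Benjamini-Hochberg over all genes. SE is that of the change and SD the Winsorized one. In simulated data for this comparison (14489 genes, 200 changed, 5 runs per size) it called 43.3%, 83.0% and 97.0% of genes changed by 0.5, 1 and 2 log2, with 4.36% to 6.09% false calls, and 0 genes with no change, where limma on values drawn in the same way called 1875 to 1969. The p-values measure the spread between the libraries within each group, with the 2 groups taken as independent. They do not measure how the PI minus CL change varies between animals. Animal numbers pair the samples, since the labels give the same animal to a CL and a PI library; the correlation of deviations between libraries of 1 animal was -0.01 to 0.21, and 3 of 6 libraries correlated best with their own number. The lost libraries leave no block in the main test, so the block was fitted on the deposited values. Alternatives were other variance priors, centring, a level filter, a floor, the deposited values and leaving out PI library 4.

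Members and the 54 gene lists (929 symbols measured of 1090) were chosen with earlier results of these data known. Named over all genes were the 10 largest called changes each way among genes without overlap and with at least 2 log2 CPM in the higher group. The 5 smallest p each way were also named. In each list up to 4 called members each way were named, and in a list with no call the 2 smallest p. Named beyond this, for their role, were Arc, C1qa, C1qc, Cd44, Cebpd, Cux1, Cx3cr1, Dusp1, Dusp6, Egr2, Emp1, Fas, Fcgr1, Fcgr2b, Hsp90aa1, Hspd1, Hspe1, Ifit3, Ifit3b, Il4ra, Il6st, Irf9, Itga5, Nes, Nr3c1, Oasl2, Serpina3n, Slc1a2, Stat3, Synm, Thbd, Vegfa and Vim. Symbols matched 14108 genes of GENCODE M21 and 10459 promoters of RefSeq (GRCm38.p6). In the motif counts under 80% of the metallothionein and immediate early genes had a promoter (10 of 13 and 24 of 32), so those checks are void. Some genes that the rule selects are not reported here. Other libraries of the series were not used here. Figures were drawn with matplotlib 3.10.9 (Python 3.11.15).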

Additional observations from a re-analysis of the deposited data

Results flagged for a closer look

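The places of the libraries within their groups were uneven. PI library 4 was among the 2 lowest values in 40.76% of 13529 genes and among the 2 highest in 40.49%, and CL library 6 was among the 2 highest in 29.53%, each apart from the other libraries of its group by more than Dixon's 95% critical ratio for 6 samples. Chance flags about 1 in 20 groups. PI library 4 was not always at 1 end of the PI libraries: among the 213 genes higher by at least 1 it was one of the 2 highest in 26.3% and one of the 2 lowest in 43.2%. What sets it apart was not tested.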

How the results depend on the processing

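Of the 1537 calls, 1501 were made with a robust variance prior, 1419 with each group centred on its median gene, 1528 with values under 0.5 CPM raised to 0.5 CPM, and 1533 of the 1534 that could be tested at 1 log2 CPM or more. With no trend in the prior 1015 genes were called, 436 of them lower, and 923 were among the 1537. On the deposited values limma called 6459 genes without the replicate block (3313 higher, 3146 lower, 49 lower by at least 1) and 6614 with it (3406 higher, 3208 lower, 49 lower by at least 1), so pairing the animals changed the count little there. Without PI library 4 the same test called 6071 (3097 higher, 2974 lower). All 1537 calls were among each of these. The drawn-in values shrink the spread, which makes these counts too high, as the simulation without change shows. That all 1537 calls are among them is thus a weak check.

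Medians of 4 lists near 0 changed sign: glycolytic enzymes (-0.01232 when centred), Wnt genes (-0.03139 when centred, -0.03795 without PI library 4, -0.01784 at 1 log2 CPM or more), and striatal and neuropeptide genes (0.01186 each without PI library 4). A change under about 0.5 log2 was often missed at this depth and spread, 43.3% of simulated ones being called. Il1rn, Tgm1 and Ccl2, at or under the limit in CL, are given as bounds only.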

Other observations

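At high levels the genes called lower were longer than those not called. Over all levels their median span from first to last annotated base was 65.9 kb, against 22 kb for genes called higher and 22.8 kb for those not called. Among genes at 7 log2 CPM or more the medians were 112 kb for the 313 called lower and 55.0 kb for those not called, and between 5 and 7 log2 CPM they were 57.2 kb and 36.8 kb. From 3 to 5 log2 CPM they were 37.3 kb and 20.3 kb, from 1 to 3 log2 CPM 12.6 kb and 12.3 kb, and under 1 log2 CPM 8.34 kb and 8.99 kb. Genes called higher had medians of 28.2 kb at 7 log2 CPM or more, 23.4 kb from 5 to 7 and 25.1 kb from 3 to 5. Their medians were 19.7 kb from 1 to 3 and 15.3 kb under 1 log2 CPM. These are values without a test.

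A change of 2 or more was seen in 35 genes that were not called, 22 of them higher in PI. Their median SE was 2.83, and in 4 of the 35 the recoverable values of the groups did not overlap.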
